A study of Homo sapiens with 9 samples.

Results

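The data described here are 6 of the 9 arrays of the series, the 3 titled as cells overexpressing TFPIβ and the 3 titled as controls with the empty vector, and they were compared as pairs by the biological replicate number in the titles. Tissue factor pathway inhibitor (TFPI) is a Kunitz-type protease inhibitor that blocks the start of blood coagulation by binding factor Xa and the complex of tissue factor with factor VIIa. TFPIβ is its shorter splice form, which keeps the first Kunitz domains and is held on the cell surface by a glycosylphosphatidylinositol (GPI) anchor, while the longer TFPIα is mainly secreted. Tissue factor also starts signalling inside tumor cells, which is why inhibitors of this pathway are studied in breast cancer. The question of the comparison was which mRNAs differ when breast cancer cells make more TFPIβ.

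All arrays are labelled as RNA of SK-BR-3, a breast cancer cell line known for amplified ERBB2 and labelled as luminal-like, grown in RPMI medium with fetal bovine serum. The TFPIβ cells carried the TFPIβ cDNA in a pcDNA3.1/V5/His-pTOPO vector and the control cells the same vector without an insert, and both were stable pools kept under a selection drug, which the labels name as puromycin and the methods of the study as neomycin. Total RNA came from 3 isolations per pool, so the p-values below measure the spread between isolations of 1 pool per group, which may be technical. Another 3 arrays, of a pool with the TFPIα cDNA, entered the same model. The values are log2 signals of Affymetrix Human Gene 1.0 ST arrays, 1 per transcript-level probe set, and a difference of 1 on this scale is a 2-fold difference. Probe sets with a highest signal of at least 5 over the 9 arrays were kept, which left 17482 of 33297. Of these, 11838 carried 1 gene symbol and stood for 11232 genes. Signals also depend on the probes, so differences between groups were read within each gene, and levels of different genes are not amounts that can be ranked.

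The markers of the labelled cell type were read first. ERBB2 lay between 5.63 and 6.24 in the 6 arrays, and its neighbours in the amplicon, GRB7 and STARD3, lay between 5.04 and 5.29 and between 6.45 and 6.58. The basal keratin genes KRT5 and KRT14 lay between 12.4 and 12.8 and between 12.01 and 12.74. Of the luminal keratins, KRT8 and KRT19 lay between 5.72 and 6.20 and between 4.68 and 5.25, and KRT18 between 9.49 and 10.8. An amplified ERBB2 region and a luminal keratin pattern were not apparent in these levels, in the TFPIβ arrays as in the empty vector arrays, which goes against the label as far as signals of different probes can tell. The groups are called here by the titles of their arrays.

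TFPI itself, the overexpressed gene, read 5.55, 5.79 and 5.81 in the TFPIβ arrays numbered 1, 2 and 3 and 5.81, 6.48 and 6.45 in the empty vector arrays. Values of 3 arrays are given in this order of numbers throughout. The TFPIβ arrays were lower in all 3 pairs, with a mean log2 difference of -0.53 (standard error 0.15, limma adjusted p = 0.583), and the highest of them touched the lowest control array. The vector carried the coding region alone, and in its discussion the study attributes the missing rise of TFPI in such values to probes for the untranslated regions, while another summary of the same arrays that leaves out dim probes did show a rise. The value used here pools the probes of the gene, so the overexpression could not be checked with it. The study also summarises its earlier measurements of the TFPIβ cells apart from the arrays. By quantitative PCR their TFPI mRNA was above that of the control cells. Their TFPI antigen in the medium was also higher after an enzyme had cut the GPI anchor. The other measured genes of the tissue factor pathway had mean differences smaller than that of TFPI, but TFPI2 and F2RL2 differed by over 2-fold in 1 pair each, with other signs in other pairs. TFPI2, a related inhibitor, had -1.06, -0.46 and 1.00. F3, which encodes tissue factor, read 6.46, 6.12 and 6.95 against 6.37, 6.09 and 6.07, a mean difference of 0.33 carried by pair 3 (0.87). PROS1, the gene of protein S, a TFPI cofactor, had a mean difference of -0.39, and F2RL2, a protease-activated receptor, had 0.44, -0.55 and -1.04. Of the 11 measured genes of this list, 3 were higher and 1 lower in all 3 pairs. In the related list of plasminogen activators and serpins, 2 of 7 were higher and 1 lower in all 3 pairs. Among these, SERPINE2, which encodes protease nexin 1, had a mean difference of -0.48, and PLAT and PLAU, the tissue and urokinase plasminogen activators, had -0.38 and 0.33.

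No probe set passed the test between TFPIβ and empty vector. A call needed an adjusted p (Benjamini-Hochberg) below 0.05 together with a 2-fold difference. By this rule limma with the replicate number as a block called 0 of 17482 probe sets higher (0.0%) and 0 lower (0.0%), and without the block it also called 0. The lowest adjusted p was 0.217 with the block and 0.663 without it. The study, whose methods name a 1-way model, an adjusted limit of 0.10 and the same fold limit, did report many transcripts as differing in this comparison. It gives STAT3 and ACSL1 as higher with TFPIβ, and they lay lower here, while GPNMB and PDGFD were higher in both. The reason for this was not tested. At an unadjusted p under 0.05, 637 probe sets were higher (3.64%) and 614 lower (3.51%) with the block, and 436 and 390 without it. Of the genes, 314 were higher (2.8%) and 443 lower (3.94%) at that level. With a 2-fold difference as well, 22 probe sets were higher (0.126%) and 35 lower (0.2%). An exact permutation test of 3 arrays against 3 cannot go below p = 0.1, so it was not used for single genes. All differences described below are therefore values of these arrays that missed the threshold, and the words higher and lower refer to the measured values alone.

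The direction in each pair was the other way to read the differences. Of the 17482 probe sets, 2190 were higher in the TFPIβ array of all 3 pairs (12.5%) and 2308 lower (13.2%), with 599 entirely above the controls (3.43%) and 653 entirely below (3.74%). Of the 11232 genes, 1248 were higher in the TFPIβ array of all 3 pairs (11.1%) and 1628 lower (14.5%). Far fewer had groups that did not overlap: in 325 genes all TFPIβ arrays lay above all empty vector arrays (2.89%), and in 473 all lay below (4.21%). The shares of 11.1% higher and 14.5% lower in all 3 pairs are the measure for the counts of every gene list in this report. Lists near them, such as extracellular matrix genes with 17.6% higher and 11.8% lower, do not stand out from all genes. A 2-fold difference in every pair was seen in 2 genes upward (0.0178%) and 7 downward (0.0623%), and in 2 (0.0114%) and 11 (0.0629%) probe sets. Across genes, the differences of pairs 1 and 2 had a Pearson correlation of 0.303, those of pairs 2 and 3 one of 0.194 and those of pairs 1 and 3 one of -0.0954. These are correlations across genes, which are not independent replicates, and are given as a description. Pair 3 also had the widest spread, with a standard deviation of its differences of 0.368, against 0.267 in pair 1 and 0.257 in pair 2.

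**Figure D1:**
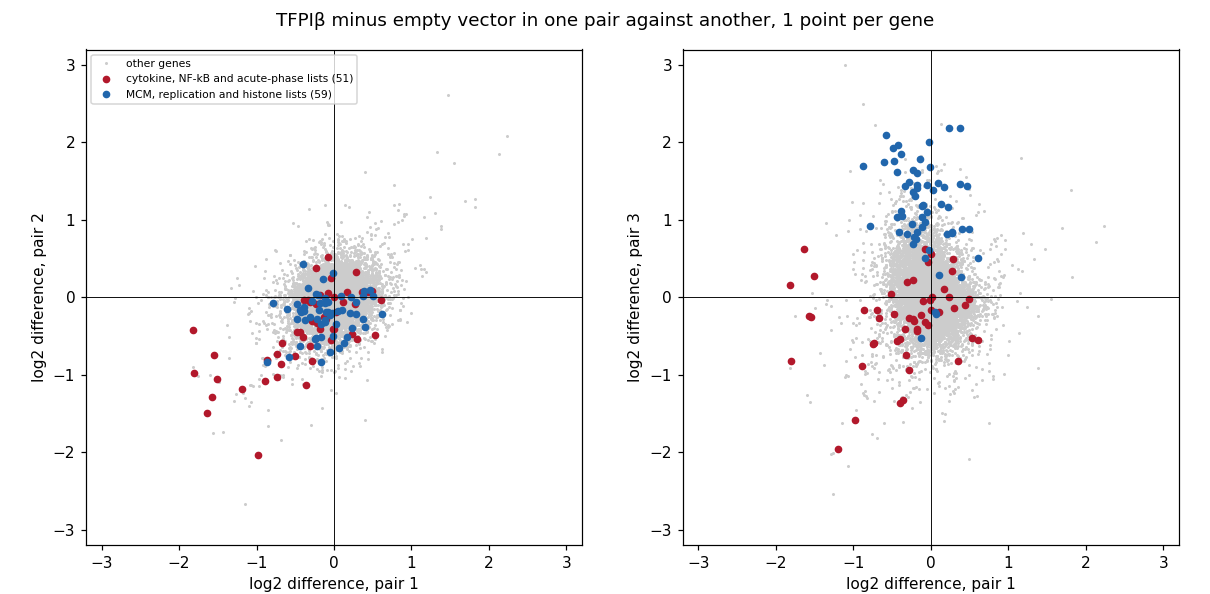
Log2 difference, TFPIβ minus empty vector, of each gene in pair 1 (horizontal axes) against pair 2 (left) and pair 3 (right), 1 point per gene, with the genes of the interleukin, chemokine, NF-kB and acute-phase lists in red and those of the MCM, replication and histone lists in blue. The red points trail to the lower left in both panels, and most blue points lie near or below 0 in pairs 1 and 2 but well above 0 in pair 3.

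The genes with a 2-fold lower signal in every pair were SLC7A2, SLC39A8, CLDN1, CFB, IL1A, UGCG and PRG4. SLC7A2, a transporter of arginine, lysine and ornithine, read 7.93, 6.24 and 7.23 in the TFPIβ arrays and 9.08, 8.90 and 8.85 in the empty vector arrays. Its mean difference of -1.81 (standard error 0.31, limma adjusted p = 0.363), a 3.51-fold lower signal, was the lowest of the named genes, and no TFPIβ array reached a control array. PRG4, which encodes the joint lubricant proteoglycan 4 and was named after its values were seen, lay at 4.395, 4.003 and 4.188 against 5.47, 5.14 and 5.20. It passed the filter of 5 only through the empty vector arrays and the TFPIα array numbered 3. Its selection thus rested on arrays where it read high, and its separation from the controls adds no support. The genes with a 2-fold higher signal in every pair were ATP1B1 and CD24. ATP1B1, the β1 subunit of the sodium and potassium pump, read 6.78, 6.81 and 6.82 in the TFPIβ arrays and 5.61, 5.77 and 5.02 in the empty vector arrays, a mean difference of 1.34 (standard error 0.16, limma adjusted p = 0.269). CD24, a GPI-anchored mucin-like surface protein, read 9.42, 9.97 and 8.02 against 7.60, 8.70 and 6.64, so each TFPIβ array lay above its own partner while the groups overlapped.

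**Figure D2:**
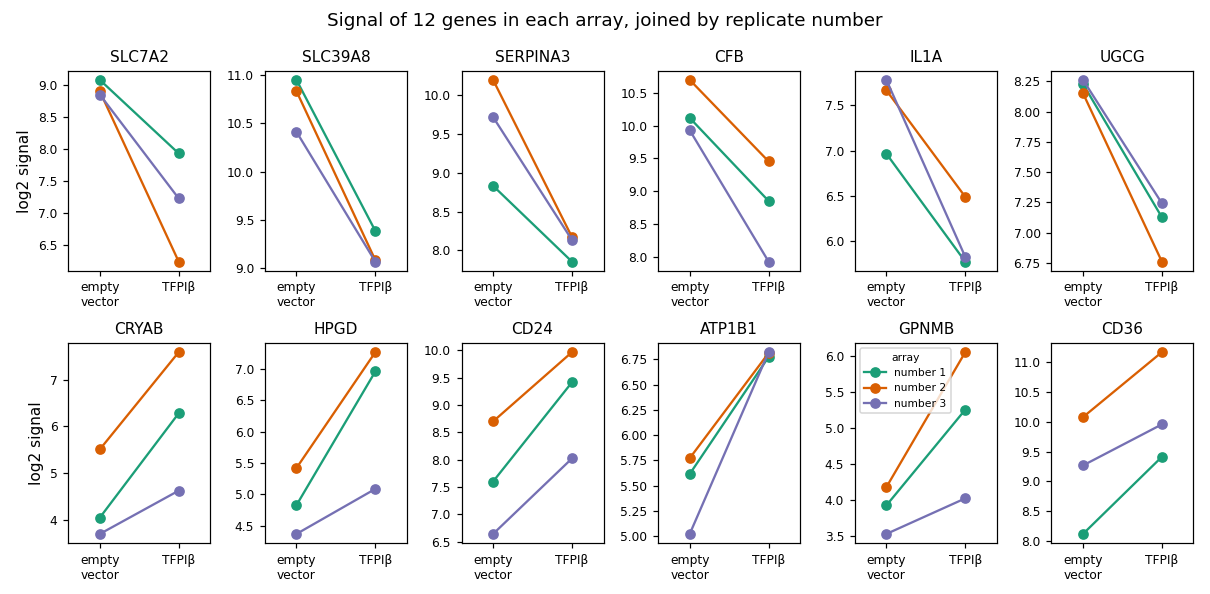
Log2 signal (vertical axes, each with its own range) of 12 genes in the empty vector and TFPIβ arrays, 1 point per array, with lines joining arrays of the same replicate number. The 6 genes of the upper row are lower and the 6 of the lower row higher in every pair, and of the lower row only ATP1B1 has all TFPIβ arrays above all controls.

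The lower p-values belonged to other genes, whose differences were smaller but even. NEDD4L, a ubiquitin ligase that removes sodium channels from the membrane, read 7.15, 6.47 and 6.82 in the TFPIβ arrays against 8.03, 7.53 and 8.06, a mean difference of -1.06 (standard error 0.097, limma adjusted p = 0.217). RIPOR2, an inhibitor of small GTPase signalling, read 7.41, 7.70 and 7.46 against 8.38, 8.85 and 8.23, a mean of -0.96 with the same adjusted p. Both genes were named after their values were seen, and in both the groups did not overlap. The 15 highest and 15 lowest named genes were picked by p-value and a common direction of the pairs, so separate groups follow in part from that choice. Of the 15 lowest, 12 were entirely below the controls (4.21% of all genes were), and 1 had a mean signal under 6. Of the 15 highest, 6 were entirely above the controls (2.89% of all genes were), 8 had a mean signal under 6, and 12 had their smallest difference in pair 3. Some of the 15 highest passed the filter of 5 only through TFPIβ or TFPIα arrays, OTULINL, GPNMB, AKR1B10 and DPT among them.

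Secreted defence proteins mostly had lower values. The acute phase is the response in which epithelial and liver cells release antiproteases, serum amyloid and complement under inflammatory cytokines. All 10 measured genes of the acute-phase and antiprotease list had a mean difference below 0, 6 were lower in all 3 pairs (60.0%, beside 14.5% of all genes), and the median was -0.54, with -0.38, -0.43 and -0.48 in pairs 1, 2 and 3. Over all genes the median of the mean differences was -0.0043. The list's median was -0.28 without TFPIβ replicate 3 and -0.27 with no filter on dim probe sets. SERPINA3, the gene of α1-antichymotrypsin, read 7.85, 8.17 and 8.13 in the TFPIβ arrays and 8.83, 10.20 and 9.72 in the controls, a mean of -1.53 (standard error 0.28, limma adjusted p = 0.363). Its TFPIβ arrays were close together and all below the controls. SERPINA1, the gene of α1-antitrypsin, had differences of -0.36, -1.13 and -1.32. SERPINB3, a squamous cell antigen, and PI3, an elastase inhibitor, were lower in pairs 1 and 2 but not in pair 3, where their differences were 0.27 and 0.16. SAA1 and SAA2, near-identical serum amyloid genes whose probes can share transcripts, read 11.1, 11.2 and 10.8 against 11.3, 11.6 and 11.2 for SAA1 and 11.54, 11.58 and 11.34 against 11.97, 12.03 and 11.90 for SAA2.

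In the complement list, 9 of 11 measured genes had a mean below 0, 4 were lower in all 3 pairs and none higher, with a median of -0.21. Leaving out arrays moved it between -0.57 (without empty vector replicate 1) and -0.039 (without TFPIβ replicate 3). CFB, which encodes factor B of the alternative pathway, read 8.85, 9.45 and 7.93 in the TFPIβ arrays and 10.12, 10.70 and 9.93 in the controls, a mean of -1.50 (standard error 0.45, limma adjusted p = 0.583). C3, the central complement component, had smaller differences of -0.32, -0.43 and -0.94, with overlapping groups. C1S and C1R, the proteases of the classical pathway, differed between pairs, with 0.05, -0.31 and -1.04 for C1S. CD55, a membrane protein that protects cells from complement, had -0.46, -0.19 and -0.54, and its TFPIβ arrays lay below the controls.

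The S100 list, small calcium-binding proteins, held differences of both signs. S100A9, a subunit of calprotectin, read 8.60, 8.59 and 8.72 in the TFPIβ arrays against 10.20, 9.59 and 9.98, a mean of -1.28 (standard error 0.53, limma adjusted p = 0.693). S100A8, the other subunit, read 11.2, 11.4 and 11.2 against 11.98, 11.84 and 11.98, a mean of -0.66. In both genes the groups did not overlap. S100A4, linked to cell motility, lay the other way, with differences of 0.42, 1.03 and 0.64, and S100A6 had 0.18, 0.13 and 0.23. Over the list, 2 of 12 measured genes were higher and 2 lower in all 3 pairs, and the median was 0.069.

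Cytokines and their signalling genes were described next. Interleukin-1α and interleukin-1β are alarm cytokines that act through NF-kB, and NF-kB in turn binds a DNA motif in the promoters of chemokine and inhibitor genes. To show this motif beside the values, 30-base windows around matches to GGGNNNTTCC were taken from RefSeq promoters of GRCh38.p14, each 250 bases before to 50 after the gene start. Sequences run 5′ to 3′ along the gene's strand, and the capitals mark the 10 motif bases. Shown are genes of the chemokine and NF-kB lists that were lower in all 3 pairs and held a match, with 1 window each where a gene had several.
CXCL1, chr4:73869304-73869333, + strand: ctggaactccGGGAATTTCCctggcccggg
CXCL3, chr4:74038749-74038778, - strand: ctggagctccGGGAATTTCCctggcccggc
CCL20, chr2:227813753-227813782, + strand, motif on the opposite strand: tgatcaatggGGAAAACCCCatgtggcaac
TNIP1, chr5:151081057-151081086, - strand: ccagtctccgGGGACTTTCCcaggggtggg
TNFAIP3, chr6:137867182-137867211, + strand, motif on the opposite strand: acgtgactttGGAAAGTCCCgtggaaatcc
NFKB1, chr4:102501300-102501329, + strand: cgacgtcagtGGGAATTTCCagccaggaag
NFKB2, chr10:102395674-102395703, + strand: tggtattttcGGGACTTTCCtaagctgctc

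Both strands were searched, and in CXCL1 and CXCL3 the match also reads on the opposite strand 1 base further on, over the same bases. A match was found in 2289 of all 35116 RefSeq promoters (6.52%), and of the 9059 belonging to genes measured here 900 did (9.93%). Within the chemokine list a match was held by 3 of 4 promoters of genes lower in all 3 pairs and by 4 of 5 of the other measured genes. In the NF-kB list the counts were 4 of 9 and 6 of 8, in the acute-phase list 0 of 3 and 0 of 3. Of the named genes, 2 of 11 promoters of the 15 lowest and 1 of 12 of the 15 highest held a match. A match describes the letters of these windows and is no evidence of binding.

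Of the interleukin-1 family, 4 of 8 measured genes were lower in all 3 pairs and none higher, with a median of -0.35. This median was -0.22 without the arrays numbered 3, -0.097 without TFPIβ replicate 3 alone and -0.11 with no filter. IL1A read 5.77, 6.49 and 5.83 in the TFPIβ arrays against 6.97, 7.67 and 7.78, a mean of -1.44 (standard error 0.18, limma adjusted p = 0.269), with groups that did not overlap. IL1B read 5.04, 5.17 and 5.05 against 5.32, 5.99 and 5.99, so the TFPIβ arrays were close together at a low signal. IL1RL1, the interleukin-33 receptor, had differences of -0.86, -0.80 and -0.16, and IL1RAP, the shared receptor subunit, -0.69, -0.86 and -0.17. All TFPIβ arrays of IL1RL1 lay under the filter of 5, at 4.04 to 4.81. IL33, another alarm cytokine of the family, had a mean of 0.36 with signals between 3.02 and 4.46 in the 6 arrays.

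Chemokines, colony-stimulating factors and interleukin-6-type cytokines had 7 of 14 measured genes lower in all 3 pairs and none higher, with a median of -0.22. It was -0.84 over genes with a signal of at least 6, -0.10 with no filter, -0.13 without TFPIβ replicate 3, and -0.11 and -0.33 without empty vector replicates 2 and 3. CCL20, which attracts dendritic and memory T cells, read 4.44, 6.14 and 6.28 in the TFPIβ arrays and 6.24, 7.12 and 7.10 in the controls, a mean of -1.20 (standard error 0.39, limma adjusted p = 0.61). CXCL8 and CXCL1, neutrophil chemokines, had their largest differences in pair 1, with -1.57, -1.29 and -0.24 for CXCL8 and -1.55, -0.75 and -0.25 for CXCL1. CSF3, the granulocyte colony-stimulating factor, read 6.19, 6.02 and 6.36 against 7.08, 7.10 and 7.25, a mean of -0.95 (standard error 0.10, limma adjusted p = 0.245). It had the third lowest p of all probe sets, and its groups did not overlap. CXCL3, shown above for its sequence, had -0.11, -0.28 and -0.05, near 0. IL6, named after its values were seen, differed in sign between pairs: it read 4.38 and 4.66 against 6.02 and 6.15 in pairs 1 and 2, and 6.83 against 6.20 in pair 3.

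In the NF-kB list, 9 of 19 measured genes were lower and 2 higher in all 3 pairs, with a median of -0.19. TNIP1 and TNFAIP3, inhibitors that NF-kB itself induces, had means of -0.79 and -0.51. TNIP1 read 6.70, 6.25 and 6.65 against 7.44, 7.28 and 7.26, without overlap. ICAM1, a leukocyte adhesion receptor, read 6.94, 6.97 and 6.94 against 7.68, 7.70 and 7.53, a mean of -0.69 (standard error 0.24, limma adjusted p = 0.637). SOD2, the mitochondrial superoxide dismutase, had -0.31, -0.62 and -0.74, and TNFAIP2 -0.40, -0.51 and -0.54. The subunit genes NFKB1 and NFKB2 had means of -0.38 and -0.29, both without overlap, while NFKBIA, the main inhibitor, read 9.12, 10.30 and 9.85 against 9.35, 10.38 and 9.63, with no common direction.

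Interferon and antigen presentation genes lay slightly lower. Interferons induce antiviral genes through JAK kinases and STAT factors, and they raise the machinery that loads peptides on class I molecules. Of 34 measured interferon-stimulated genes, 14 were lower and 1 higher in all 3 pairs, with a median of -0.12. IFIT3, an antiviral protein of the IFIT family, read 5.29, 5.01 and 4.86 against 5.96, 5.33 and 5.36, and IFI44L had differences of -0.17, -0.52 and -0.62. IFIT2 and MX1 each had a difference near 0 in pair 2, with 0.01 for IFIT2. In the class I list, 5 of 12 were lower and 1 higher in all 3 pairs, with a median of -0.11. ERAP1, which trims peptides for class I molecules, read 7.08, 7.08 and 6.57 against 7.49, 7.64 and 7.44, a mean of -0.61 (standard error 0.15, limma adjusted p = 0.499). PSMB9, an immunoproteasome subunit, and TAP1, a peptide transporter, had means of -0.40 and -0.32. In the JAK, STAT and SOCS list 6 of 19 were lower and 1 higher in all 3 pairs, with a median of -0.16. STAT3, which carries interleukin-6 signals, had -0.07, -0.39 and -0.72, and STAT4 -0.29, -0.28 and -1.28.

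Membrane transporters gave several of the largest differences. SLC39A8, which imports zinc, manganese and cadmium, read 9.39, 9.08 and 9.07 in the TFPIβ arrays and 10.95, 10.83 and 10.41 in the controls, a mean of -1.55 (standard error 0.44, limma adjusted p = 0.577), a 2.93-fold lower signal. SLC39A14, a related importer of zinc and iron, read 7.75, 7.15 and 7.59 against 8.60, 8.60 and 8.58, a mean of -1.10. Neither gene had overlapping groups. Among metallothioneins, which bind zinc, MT1X had a mean of -0.26 and MT1H one of -0.33, and SLC30A1, a zinc exporter, had 0.87, -0.07 and 0.47. All TFPIβ arrays of MT1H lay under the filter of 5, at 4.36 to 4.83. Over this list 16 of 17 measured genes had a mean below 0, 8 were lower in all 3 pairs and none higher, with a median of -0.17.

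Of the amino acid transporters, 5 of 17 were lower in all 3 pairs and none higher, with a median of -0.20. SLC7A1, the other cationic amino acid transporter measured, had -0.38, -0.31 and -0.60, smaller than SLC7A2. SLC7A11, the cystine importer, had most of its difference in pair 3 (-1.61), and SLC6A9, a glycine transporter, had 0.00 in pair 2 and -1.30 in pair 3. In the sodium pump list, 2 of 6 were higher in all 3 pairs and none lower, with a median of 0.14. Beside ATP1B1, ATP1B3 had a mean of 0.22 and the regulator FXYD3 one of 0.20, and SGK1, a kinase that acts on NEDD4L and sodium channels, one of -0.26.

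Lipid genes held 1 large difference. UGCG, the ceramide glucosyltransferase that starts glycosphingolipid synthesis, read 7.13, 6.76 and 7.24 in the TFPIβ arrays against 8.23, 8.15 and 8.26, a mean of -1.17 (standard error 0.155, limma adjusted p = 0.318). B4GALT5, which adds the next sugar to make lactosylceramide, had -0.15, -0.47 and -0.55. ACSL1 and ACSL4, which activate long-chain fatty acids, had means of -0.63 and -0.53, and SCD, the stearoyl-CoA desaturase, lay higher with 0.24, 0.29 and 0.51. In this list 7 of 20 were lower and 2 higher in all 3 pairs, with a median of -0.048. Cholesterol synthesis and uptake genes had 5 of 18 lower and none higher, with a median of -0.0435. Its largest differences had no common sign in INSIG1, a brake on sterol synthesis (-0.65, -0.50 and 0.11), and SQLE, squalene epoxidase (-0.17, 0.39 and 0.72). STARD4, a sterol carrier, and SREBF2, the main transcription factor of the pathway, had means of -0.29 and -0.25.

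The genes with the highest differences belonged to varied classes. CRYAB, a small heat shock protein, read 6.28, 7.59 and 4.63 in the TFPIβ arrays and 4.05, 5.51 and 3.70 in the controls, a mean of 1.75 (standard error 0.49, limma adjusted p = 0.575). HPGD, which inactivates prostaglandins, read 6.96, 7.27 and 5.09 against 4.83, 5.42 and 4.37. In both genes the TFPIβ array of pair 3 lay below the control array of pair 2, so the groups overlapped. GPNMB, a transmembrane glycoprotein of lysosomes and melanosomes, read 5.25, 6.05 and 4.02 against 3.92, 4.17 and 3.52, and HPD, an enzyme of tyrosine breakdown, had 1.69, 1.24 and 0.90. CD36, a fatty acid and thrombospondin receptor, read 9.41, 11.17 and 9.96 against 8.11, 10.08 and 9.27. Its mean of 1.03 had a standard error of 0.28 (limma adjusted p = 0.575). AKR1B10, a carbonyl reductase, OTULINL, an inactive deubiquitinase relative, and PLEKHF2, an endosomal protein, had means of 0.84, 0.97 and 0.86, each with all TFPIβ arrays above the controls. OTULINL and GPNMB passed the filter of 5 only through TFPIβ arrays, and AKR1B10 only through TFPIβ and TFPIα arrays. The selection of these 3 genes thus rested on groups where they read high. The separation of OTULINL and AKR1B10 from the controls adds no support, and in GPNMB the groups overlapped. PDGFD, a platelet-derived growth factor, had 0.82, 1.13 and 0.75.

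The lowest named genes not yet described were also of varied classes. HSD17B2, which inactivates estradiol and testosterone, read 7.36, 6.97 and 8.27 in the TFPIβ arrays and 8.78, 8.70 and 8.98 in the controls, a mean of -1.29 (standard error 0.27, limma adjusted p = 0.404). DCN, the gene of the matrix proteoglycan decorin, read 9.66, 9.48 and 9.64 against 10.52, 11.14 and 10.91, a mean of -1.26 (standard error 0.19). FBN2, fibrillin 2, read 6.88, 5.86 and 6.63 against 7.56, 7.70 and 7.68. In these genes no TFPIβ array reached a control array. PDZK1IP1, a membrane protein of epithelia, had -0.96, -1.05 and -1.46, and ANXA3, a phospholipid-binding annexin, -1.81, -0.90 and -0.91.

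Keratins and cell contacts differed gene by gene. In the basal list 1 of 10 measured genes was higher and 1 lower in all 3 pairs, with a median of -0.054. CAV1, the caveolae protein, read 10.1, 10.2 and 10.2 against 9.50, 10.0 and 9.60, and ITGA6 had -0.20, -0.21 and -0.39. KRT15, a keratin of the basal layer, read 10.48, 10.39 and 6.20 in the TFPIβ arrays and 9.98, 10.04 and 8.29 in the controls, so its mean of -0.41 came from pair 3 alone. Of the luminal list, 4 of 10 were lower and 2 higher, with a median of -0.067. This median was -0.29 over genes with a highest signal of at least 6 and 0.0031 with no filter. KRT18 had 0.25, 0.66 and 0.63, KRT7 -0.27, -0.31 and -0.21, and AGR2, a secretory pathway disulfide isomerase, -0.77, -0.73 and -0.84 at signals of 3.63 to 6.31. The ERBB2 amplicon list had 0 of 7 higher and 1 lower, with a median of -0.034, and ERBB2 itself had 0.35, -0.36 and -0.09.

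Squamous differentiation genes had 1 of 9 higher and 2 lower in all 3 pairs, with a median of -0.018. It was -0.35 over genes with a highest signal of at least 6 and 0.041 with no filter. KRT10, a keratin of differentiating layers, read 10.87, 12.18 and 9.73 in the TFPIβ arrays against 9.97, 11.12 and 8.93, an even mean of 0.92 (standard error 0.355, limma adjusted p = 0.67), with levels that differed more between pairs than within them. TGM1, the transglutaminase of the cornified envelope, lay the other way with -0.38, -0.79 and -1.28, and CSTA, a cystatin, had a mean of -0.35. Of the 18 epithelial junction genes, 1 was higher and 1 lower in all 3 pairs, with a median of -0.047. The lower gene was CLDN1, a tight junction claudin, which read 7.90, 6.47 and 5.64 against 8.96, 7.82 and 7.81, a mean of -1.53 (standard error 0.26, limma adjusted p = 0.363). The higher one was CDH1, the gene of E-cadherin, with 4.98, 6.18 and 4.46 against 4.15, 5.21 and 4.23, a mean of 0.68.

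Mesenchymal and EMT regulator genes, those of the epithelial to mesenchymal transition, had 4 of 12 higher and 3 lower, with a median of 0.072. FN1, the fibronectin gene, had 0.83, 0.08 and 0.72, TWIST1, a transcription factor of this programme, 0.27, 0.20 and 0.31, and CDH2, the gene of N-cadherin, a mean of -0.32. Integrins and laminins, which anchor cells to the basement membrane, had 6 of 15 lower and 1 higher in all 3 pairs, with a median of -0.26, which was -0.42 without the arrays numbered 1 and -0.11 without those numbered 3. LAMA4, a laminin chain, was the higher one, with 6.63, 7.23 and 6.42 against 4.801, 6.064 and 6.163, a mean of 1.08 (standard error 0.38, limma adjusted p = 0.641). LAMB3 and LAMB1, other laminin chains, had means of -0.72 and -0.52. ITGA3, an integrin that binds laminins, read 8.49, 8.50 and 8.84 against 8.88, 8.89 and 9.32, an even mean of -0.42, and ITGA5, a fibronectin receptor subunit, had -0.58. Extracellular matrix and metalloprotease genes had 3 of 17 higher and 2 lower, with a median of 0.059. COL8A1, a short-chain collagen, had -1.01, -0.52 and -0.57, TIMP1, a metalloprotease inhibitor, -0.18, -0.67 and -0.34, and POSTN, periostin, most of its mean of 0.46 in pair 3 (1.00). COL8A1 passed the filter of 5 only through the empty vector and TFPIα arrays numbered 1.

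Growth factor pathways had few even differences. In the EGF receptor family list, none of 8 was higher and 1 lower in all 3 pairs, with a median of -0.018, and the ligand EREG had -0.74, -0.71 and 0.28. Immediate early and MAPK feedback genes had 9 of 29 lower and 1 higher, with a median of -0.11, and 24 of 29 had a mean below 0. DUSP6, a phosphatase that ERK signalling induces, read 5.17, 5.73 and 7.76 in the TFPIβ arrays and 6.35, 6.97 and 8.01 in the controls. DUSP1, a related phosphatase, had -0.05, -0.66 and -1.18, and FOS, an AP-1 subunit, 0.75, -0.35 and -1.62. Wnt ligands, receptors and targets had 4 of 21 higher and 2 lower, with a median of 0.057. FZD4, a Frizzled receptor, read 6.72, 7.02 and 5.99 against 7.32, 7.92 and 7.61, a mean of -1.04 (standard error 0.28, limma adjusted p = 0.572), and WNT5A, a non-canonical ligand, had 0.89 in pair 1 and 0.03 in pair 3. The TGF-beta and BMP list had 5 of 18 lower and 1 higher, with a median of -0.034. ID3, a BMP target that blocks differentiation factors, had 0.45, 0.62 and 1.55, and LTBP1, which stores latent TGF-beta in the matrix, had -0.58, -0.65 and -0.61.

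In the IGF list, 2 of 8 were lower and 1 higher in all 3 pairs, with a median of -0.17. IGFBP3, the main carrier of insulin-like growth factors, read 6.41, 6.21 and 6.61 in the TFPIβ arrays and 5.45, 5.60 and 5.87 in the controls, a mean of 0.77 (standard error 0.14, limma adjusted p = 0.363) without overlap. IGF1R, the receptor, had -0.11, -0.41 and -0.71, and IGF2R 0.08, -0.35 and -0.64. Among small GTPase regulators, 5 of 22 were lower and 3 higher, with a median of -0.070. DOCK11, an exchange factor for CDC42, read 4.17, 4.35 and 5.08 against 3.55, 3.66 and 3.88, a mean of 0.83 at low signals. It passed the filter of 5 only through the TFPIβ array numbered 3.

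**Figure D3:**
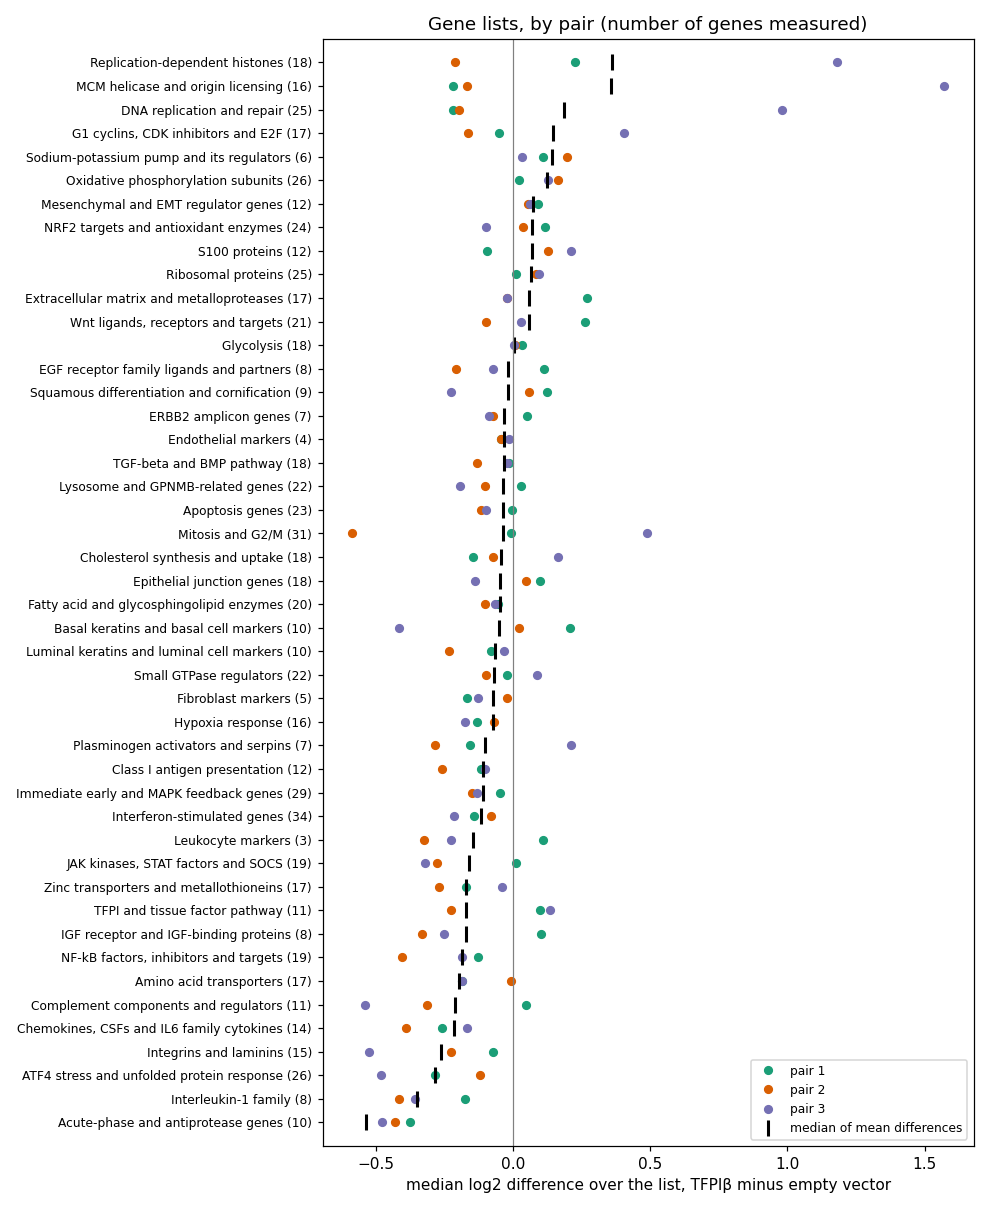
Median log2 difference, TFPIβ minus empty vector, over the measured genes of each of 46 gene lists (vertical axis, number of genes in brackets), with 1 point per pair and a black bar for the median of the mean differences. The acute-phase, interleukin-1, ATF4 and integrin lists lie lowest, and the MCM, replication and histone lists have pair 3 far to the right, with medians of 1.57, 0.98 and 1.18, while their other pairs lie at or below 0.23.

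Cell cycle genes differed between the pairs. The MCM helicase is loaded on DNA before replication, and histone genes of the replicating type are expressed in S phase, so these genes vary with the share of dividing cells. All 16 measured genes of the MCM and licensing list were higher in pair 3, with a median of 1.57, while the medians of pairs 1 and 2 were -0.22 and -0.17, and none of the 16 had the same sign in all pairs. MCM6 read 6.84, 6.06 and 9.04 in the TFPIβ arrays and 7.26, 6.25 and 7.07 in the controls, and MCM4 read 7.15, 7.04 and 9.07 against 7.17, 6.72 and 7.06. Of these 6 arrays the TFPIβ array numbered 3 stands apart in both genes, and its values are near those of the TFPIα arrays, which read 8.35, 8.87 and 9.07 for MCM4 and 8.45, 8.65 and 9.02 for MCM6. For DNA replication and repair genes the pair medians were -0.22, -0.20 and 0.98, with 0 of 25 alike in all pairs. PCNA, the sliding clamp of the polymerases, had -0.18, -0.07 and 1.61, and UHRF1, which maintains DNA methylation, -0.34, 0.12 and 1.44.

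CCNE2, the cyclin E2 gene of the G1 to S transition, read 4.02, 4.10 and 7.70 against 5.13, 4.32 and 4.70, a pair 3 difference of 3.01. Of its list of G1 cyclins, CDK inhibitors and E2F factors, 1 of 17 was higher in all 3 pairs and none lower, with a median of 0.14. Mitosis and G2/M genes behaved differently between pairs, with medians of -0.0089, -0.59 and 0.49 and 1 of 31 lower in all pairs. TOP2A, the topoisomerase of dividing cells, had 0.03, -0.75 and -0.10, and MAD2L1, a spindle checkpoint protein, -0.10, 0.30 and 0.97. Replication-dependent histones, whose near-identical copies can share probes, had 6 of 18 higher and 1 lower in all 3 pairs, with pair medians of 0.23, -0.21 and 1.18. H2BC14 read 7.78, 6.10 and 9.45 against 7.40, 6.38 and 7.25, and H1-5, a linker histone gene, had 0.23, -0.40 and 2.19.

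By array, the median signal of the MCM list was 6.63, 5.39 and 7.93 in the TFPIβ arrays and 6.81, 5.84 and 6.56 in the controls, so the arrays numbered 2 were the lowest of both groups. In the TFPIα arrays it was 7.78, 7.91 and 8.14. The mitosis list gave 7.94, 6.25 and 8.54 against 7.998, 6.920 and 8.181. Without the arrays numbered 3, the medians of the mean differences were -0.21 for the MCM list, -0.28 for the replication list and 0.022 for the histones, in place of 0.36, 0.19 and 0.36. More dividing cells and more RNA of these genes per cell cannot be told apart in such samples, and the part of these cell cycle levels in the other differences of pair 3 was not tested.

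**Figure D4:**
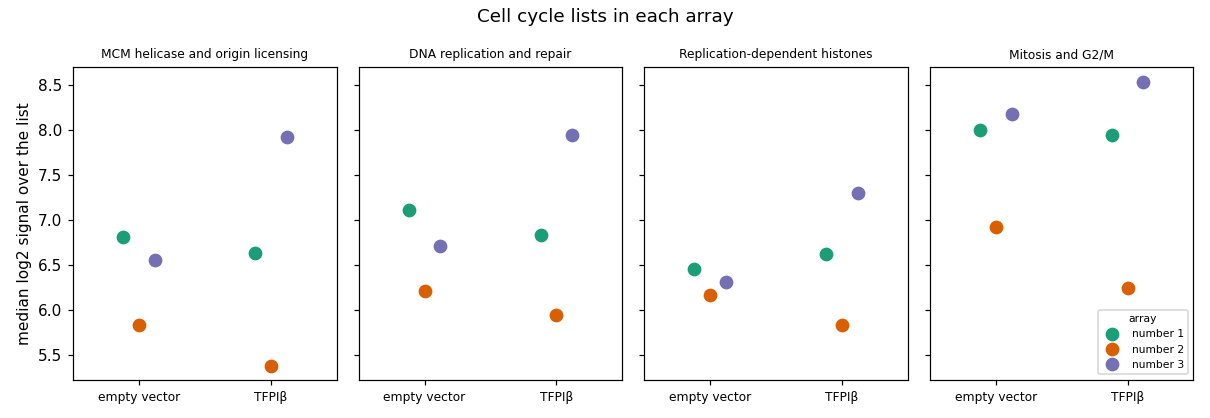
Median log2 signal (vertical axis) over the genes of 4 cell cycle lists in each of the 3 empty vector and 3 TFPIβ arrays, 1 point per array, coloured by replicate number. The TFPIβ array numbered 3 lies highest in every panel, at 7.93 in the MCM list against 5.39 to 6.81 in the other arrays, and the TFPIβ array numbered 2 lies lowest.

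Stress and metabolic genes held the other broad patterns. The ATF4 and unfolded protein response list covers genes that cells use when amino acids are short or protein folding fails. All 26 measured genes had a mean below 0, 12 were lower in all 3 pairs (46.2%, beside 14.5% of all genes) and none higher, and the median was -0.28, with -0.29, -0.12 and -0.48 by pair. Its largest differences were uneven, as ASNS, asparagine synthetase, read 7.90, 6.48 and 6.58 in the TFPIβ arrays and 9.15, 6.23 and 9.12 in the controls. PHGDH, the first enzyme of serine synthesis, read 8.88, 7.64 and 7.75 against 9.64, 7.03 and 9.51. In both genes the arrays numbered 2 lay low in both groups and differed the other way. DNAJB9 and HSPA5, chaperones of the endoplasmic reticulum, had means of -0.55 and -0.22, with HSPA5 at -0.34, -0.13 and -0.19, and VLDLR, a lipoprotein receptor and ATF4 target, had -0.22, -0.40 and -0.83. VLDLR passed the filter only through the empty vector array numbered 3, at 5.02.

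Oxidative phosphorylation subunits lay slightly higher, with 12 of 26 higher in all 3 pairs (46.2%, beside 11.1% of all genes), 1 lower and a median of 0.12. COX6C, a subunit of cytochrome c oxidase, read 10.09, 10.63 and 10.19 against 9.72, 9.94 and 9.36, a mean of 0.63 (standard error 0.13, limma adjusted p = 0.412). NDUFB3, of complex I, read 6.85, 7.04 and 7.03 against 6.65, 6.40 and 6.36. Ribosomal protein genes were closer to 0 but even, with 10 of 25 higher in all 3 pairs (40.0%), none lower and a median of 0.064. RPL7 read 11.45, 11.79 and 11.56 against 11.23, 11.51 and 11.23, and RPL22 had a mean of 0.26. Several of these genes, COX6C, CYC1, RPL7 and RPL30 among them, lie on chromosome 8, which is described below. Without the genes of that chromosome, 10 of 23 oxidative phosphorylation and 7 of 22 ribosomal genes were higher in all 3 pairs, with medians of 0.0885 and 0.0594.

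Glycolysis had 3 of 18 higher and 2 lower, with a median of 0.0038, and HK2, hexokinase 2, was lower with 8.32, 8.49 and 8.41 against 8.63, 8.96 and 9.33. Hypoxia response genes had 8 of 16 lower and 1 higher in all 3 pairs, with a median of -0.076. CA12, a carbonic anhydrase, had -0.24, -0.62 and -0.66, HIF1A, the oxygen-regulated factor, -0.28, -0.35 and -0.24, and VEGFA, the vascular growth factor, -0.77, -0.34 and -0.21. NRF2 targets and antioxidant enzymes had 4 of 24 higher and 3 lower, with a median of 0.070. ABCC3, an efflux pump of conjugates, read 7.12, 6.79 and 6.84 against 7.58, 7.24 and 7.65, while GCLM, a subunit of the glutathione-forming ligase, had a mean of 0.34. Lysosome genes had 4 of 22 lower and 2 higher, with a median of -0.036, and CTSD, cathepsin D, had 0.03, -0.27 and -0.71. Apoptosis genes had 6 of 23 lower (26.1%, beside 14.5% of all genes) and none higher, with a median of -0.036. CASP4, an inflammatory caspase, had -0.42, -0.25 and -0.40 without overlap, and TNFSF10, the gene of the death ligand TRAIL, 0.70, 0.57 and -0.21.

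Markers of other cell types were read as levels, with no measured background to set them against. PTPRC, which marks leukocytes, lay between 2.19 and 2.23, PDGFRA between 3.26 and 3.67, and CDH5 and VWF, of endothelial cells, between 3.31 and 3.61 and between 3.42 and 3.53. Other defining genes had higher signals, with 5.25 to 5.58 for the endothelial PECAM1 and 6.64 to 7.72 for COL1A1, a collagen gene of fibroblasts. DCN, of the fibroblast list, lay between 9.48 and 11.1, and VIM, a mesenchymal gene, between 10.3 and 10.7. The median over the 11 leukocyte genes with a probe set lay between 3.51 and 3.58 in the TFPIβ arrays and between 3.22 and 3.76 in the controls. For the 10 endothelial genes it was 3.63 to 3.74 against 3.55 to 3.73, and for the 10 fibroblast genes 4.36 to 4.51 against 4.29 to 4.43. Of the leukocyte list 1 of 3 measured genes was lower in all 3 pairs, of the endothelial list 2 of 4, and of the fibroblast list 2 of 5 with 1 higher, with medians of -0.15, -0.034 and -0.075. CD14, a lipopolysaccharide receptor of monocytes that epithelial cells can also express, read 6.96, 6.46 and 8.25 against 8.35, 6.82 and 9.12. DPT, a dermal matrix protein of the fibroblast list, read 5.79, 6.76 and 5.23 against 4.32, 4.15 and 4.61, a mean of 1.57 (standard error 0.32, limma adjusted p = 0.404), and DCN of the same list lay lower, as given above. DPT passed the filter of 5 only through TFPIβ and TFPIα arrays.

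MIR21, the gene of a microRNA abundant in many tumors, was named after its values were seen. Its probe set read 7.49, 7.66 and 6.44 in the TFPIβ arrays and 8.18, 8.34 and 8.25 in the controls, a mean of -1.06 (standard error 0.32, limma adjusted p = 0.583), and the groups did not overlap. The mature product, hsa-miR-21-5p, lies at chr17:59841273-59841294 on the + strand of GRCh38.p14 and is shown from RefSeq, with its seed, bases 2 to 8, in capitals, because it is the part that pairs with target mRNAs.
hsa-miR-21-5p: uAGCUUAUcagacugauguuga
The array measures the primary transcript or precursor of MIR21 and not this mature RNA, so the difference does not give the level of the miRNA.

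Differences were finally compared by chromosome, a comparison chosen after values had been seen. Of the 397 measured genes of chromosome 8, 126 were higher in all 3 pairs (31.7%, beside 11.1% of all genes) and 36 lower (9.07%). On the other chromosomes the share higher in all 3 pairs lay between 7.1% and 15%. The median of the mean differences on chromosome 8 was 0.16, with 0.040, 0.18 and 0.21 in pairs 1, 2 and 3. The genes were then put in order along the chromosome and split into 8 parts. From SDR16C5 to CHMP4C, from SNX16 to PABPC1 and from YWHAZ to SQLE, all on the long arm, the medians were 0.32, 0.38 and 0.36, and 24 of 50, 28 of 50 and 25 of 49 genes were higher in all 3 pairs. In the first parts, from FBXO25 to EIF4EBP1, the medians were -0.015 and -0.032. The remaining parts lay between these. From ASH2L to CHCHD7 the median was 0.077, with 11 of 49 genes higher in all 3 pairs. In the last parts, from WASHC5 to C8orf33, the medians were 0.12 and 0.16, with 17 of 50 and 16 of 49.

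Single genes of this stretch included PLEKHF2, which read 6.43, 7.11 and 6.53 in the TFPIβ arrays against 5.66, 5.92 and 5.90, and COX6C, described above, and RPL30. The differences were small in pair 1, where the same 3 parts had medians of 0.067, 0.093 and 0.044, against 0.42 in pair 2 and 0.47 to 0.63 in pair 3. SLC7A2 and SLC39A14, of the short arm, were among the lowest genes, and MCM4 and CCNE2 of the cell cycle lists lie on this chromosome as well. With arrays centred on their medians the chromosome's median was 0.15, with a highest signal of at least 6 it was 0.20, and without the arrays numbered 1, 2 or 3 it was 0.215, 0.145 and 0.111.

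**Figure D5:**
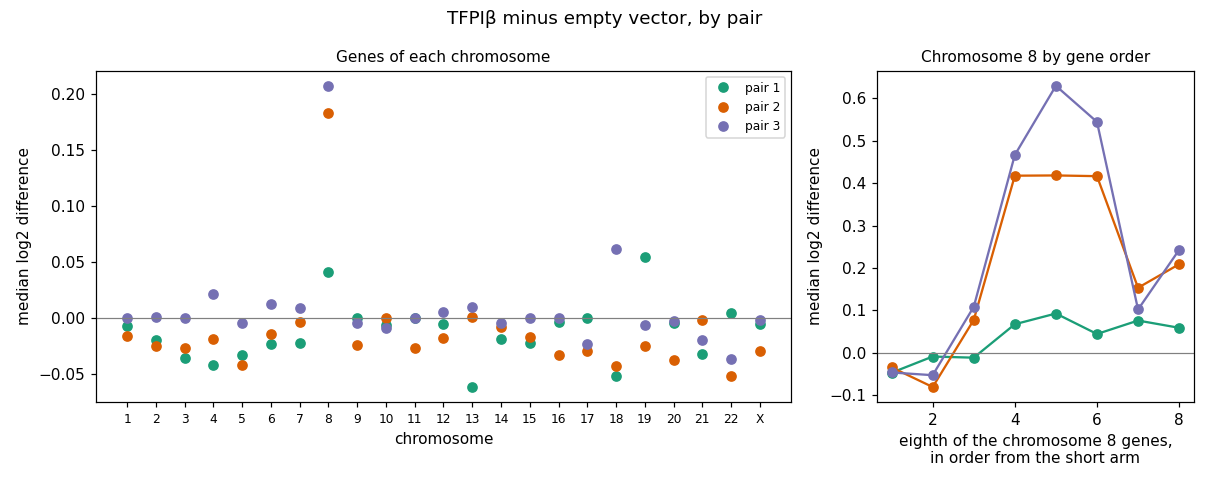
Median log2 difference, TFPIβ minus empty vector, over the measured genes of each chromosome (left) and over 8 consecutive parts of the chromosome 8 genes in gene order (right), 1 point per pair. Chromosome 8 stands above the others in pairs 2 and 3, at 0.18 and 0.21, and the right panel places the highest values of these pairs in parts 4 to 6.

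The TFPIα arrays were compared with the TFPIβ arrays in the same model, to show where the latter differ from the other isoform. Both isoforms were compared with the same 3 empty vector arrays, so their differences from empty vector are given side by side only. Between TFPIβ and TFPIα, 1 probe set without a gene symbol was called, with a limma adjusted p = 0.0336, and over the 35 named genes the adjusted p lay between 0.32 and 0.968. CRYAB differed from empty vector by 1.75 with TFPIβ and by 0.05 with TFPIα, and TFPIβ lay 1.70 above TFPIα (limma adjusted p = 0.32). GPNMB had 1.24 and 0.19, CD36 1.03 and 0.02, CD24 1.49 and 0.40, and PDGFD 0.90 and -0.13. In the other direction, ATP1B1 had 1.34 with TFPIβ and 1.95 with TFPIα, SERPINA3 -1.53 and -2.26, CFB -1.50 and -2.17, and S100A9 -1.28 and -2.01. SLC39A8 had -1.55 and -1.60, UGCG -1.17 and -0.94, IL1A -1.44 and -1.92, and NEDD4L -1.06 and -1.01. List medians are described without a test. The acute-phase list had -0.54 with TFPIβ and -0.70 with TFPIα, complement -0.21 and -0.53, and ATF4 -0.28 and -0.32. Chemokines had -0.22 and -0.31, and the NF-kB list -0.19 and -0.25. The interleukin-1 list had -0.35 and -0.22, and the integrin list -0.26 and -0.14. Such gaps between medians are not the median of the direct differences. Taken gene by gene, TFPIβ minus TFPIα had a median of -0.0096 in the interleukin-1 list and -0.11 in the integrin list. It was 0.31 in the acute-phase, 0.55 in the complement and -0.0074 in the ATF4 list, and 0.077 for chemokines and -0.064 for the NF-kB list. Of the cell cycle lists, the MCM list had a median of 0.36 with TFPIβ and 1.56 with TFPIα, and TFPIβ minus TFPIα gave -1.05. For the replication, mitosis and histone lists TFPIβ minus TFPIα gave -0.87, -0.91 and -0.96. MCM6 differed from empty vector by 0.45 with TFPIβ and by 1.84 with TFPIα, and TFPIβ lay -1.39 from TFPIα (limma adjusted p = 0.32). In the 3 chromosome 8 parts with the highest medians, TFPIα minus empty vector gave 0.30, 0.40 and 0.36, and TFPIβ minus TFPIα lay within 0.021 of 0. None of the genes given here passed the test between the isoforms, and the list and chromosome values were not tested. This does not show that the isoforms act alike.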

How the data were processed

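Total RNA of the stable pools was hybridised to Affymetrix Human Gene 1.0 ST arrays, 3 per group. The authors made the deposited log2 values from the scanner files by RMA in Partek Genomics Suite, with background correction, quantile normalization and probe set summary over the 9 arrays. Versions are not given in the sources used here, and the log base was read from the values. Quantile normalization gives all arrays 1 distribution, so a shift of all genes cannot be seen, and the number of arrays limits the precision.

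Groups were taken from the array titles. A linear model of all 9 arrays was fitted in R 4.3.3 by limma version 3.58.1 with moderated variances and two-sided tests, with group and replicate number as terms, and p-values were adjusted over 17482 probe sets. The arrays were paired by the numbers in their titles. As a description, deviations from the group means of same-numbered arrays correlated between 0.137 and 0.594 in 9 comparisons, against -0.512 to 0.266 in 18 others. These ranges overlap, with 0.209 for the TFPIβ and empty vector arrays numbered 1. Deviations cancel within a group, so the ranges are not independent of each other. Of the kept probe sets, 1150 carried several gene symbols and 4494 none, and these were not named. The probe annotation that came with the platform was used for symbols, updated through RefSeq of GRCh38.p14. Of several probe sets of a gene, that with the highest mean signal was used.

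Genes named were TFPI, any called gene, the 15 highest and 15 lowest differences among genes with an unadjusted p under 0.05 and 1 direction in all pairs, and up to 4 large differences of each list. Other genes are said to be chosen after their values were seen or stand as further list members. The gene lists, the members and the rules were chosen with earlier results of these data known, and 732 of 961 listed symbols were measured. Tables were made in Python 3.11.15 with pandas 2.3.3, and the fit was tested on simulated data. Alternatives were other models, filters and scaling and leaving out arrays.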

Additional observations from a re-analysis of the deposited data

How the results depend on the processing

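The count of called probe sets was 0 in both directions under every model, filter, scaling and left-out array that was run, and at an adjusted p under 0.10. Counts at an unadjusted p under 0.05 moved. Higher probe sets numbered 637, and 423 in a one-way model without block or variance moderation, 993 with no filter on the highest signal, 380 over probe sets with 1 gene symbol (fewer were tested), and 415 without replicate 3 to 1002 without empty vector replicate 1. Lower probe sets numbered 614, and 1019 with no filter, and 400 without replicate 3 to 756 without empty vector replicate 1. With no replicate block, 436 were higher and 390 lower, and this pairing changed no call. The cause of these shifts was not tested. The 2-fold counts in all pairs stayed at 2 upward and lay between 9 and 13 downward.

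Of 2683 recomputed values of 149 genes, 2670 kept their direction. Those that turned did so when 1 array or pair was left out. Over such settings the log2 difference of SERPINE2 ranged from -0.9198 to 0.0139, the log2 difference of KRT15 from -1.195 to 0.425 and the log2 difference of PCNA from -0.1266 to 0.7797. The log2 difference of UHRF1 ranged from -0.1067 to 0.781, the log2 difference of TOP2A from -0.5058 to 0.1365, the log2 difference of CCNE2 from -0.6622 to 1.3961 and the log2 difference of H1-5 from -0.0829 to 1.2088. Of the 46 list medians, 8 changed sign without replicate 3, 6 without replicate 2, 4 without replicate 1, 3 with no filter and 1 with centred arrays. Further list medians moved by over 1.5 times when single arrays or all arrays of 1 number were left out. With single arrays left out, the tissue factor list (-0.17) lay between -0.26 and 0.032, and zinc genes (-0.17) reached -0.060. In the same way the IGF list (-0.17) reached -0.0495, interferon-stimulated genes (-0.12) -0.22 and class I genes (-0.11) -0.045. Amino acid transporters (-0.20) reached -0.047 without replicate 3, and JAK and STAT genes (-0.16) -0.086 without replicate 2. Not every such list is given here. The NF-kB median (-0.19) came up to this limit, at -0.28 without replicate 1. The ATF4 median (-0.28) did not move that far under any alternative run.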
